A study of Mus musculus with 17 samples.

Results

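Genes of the extracellular matrix, of the proteases and inhibitors that remodel it, and of the hepatic stellate cell were followed through 2 mouse liver experiments. The members were taken by symbol: collagen chains (Col followed by numbers), matrix metalloproteases (Mmp), tissue inhibitors of metalloproteases (Timp), laminin chains (Lama, Lamb, Lamc), Adamts proteases, and the 10 genes Dcn, Lum, Bgn, Acta2, Des, Pdgfrb, Lrat, Reln, Lox and Sparc. A member needed a count above 0 in at least 1 library. In liver 103 of 29594 genes above 0 were members, in hepatocytes 92 of 15632, and 89 genes were members in both, 106 in all. One of them, Col4a3bp, was matched by its prefix only, since it encodes the ceramide transfer protein and no collagen, and it is described apart.

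The study deleted enzymes of sphingolipid synthesis: SMSr (gene Samd8), and the sphingomyelin synthases SMS1 and SMS2 (genes Sgms1 and Sgms2). The liver experiment held 4 wild-type (WT) and 4 SMSr-knockout (SMSrKO) libraries from mice that had all eaten a high-fat diet, with fructose in the drinking water, for 16 weeks. The hepatocyte experiment held 3 WT libraries, 3 libraries of the Sms1/Sms2 double knockout (dKO) and 3 of the Sms1/Sms2/Smsr triple knockout (tKO), from mice of 2 months with no diet named. These hepatocytes were freed from the liver with collagenase in 2 steps. The hepatocyte protocol gives 3 mice a group, though not which library came from which mouse, and nothing says whether the liver replicates are separate animals. Strain, sex and the kind of deletion (whole body or by cell type) are not stated in the labels either. The p-values therefore reflect only how these libraries vary, which may be in part technical.

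The extracellular matrix is the protein scaffold around cells. Fibrillar collagens give it tensile strength, collagen IV and laminins form basement membranes, small proteoglycans such as decorin bind collagen fibrils, metalloproteases and Adamts proteases cut these proteins, and TIMPs block the metalloproteases. In liver most fibrillar collagen comes from stellate cells, the vitamin A storing pericytes of the sinusoid, which turn into contractile myofibroblasts during fibrosis and then express alpha smooth muscle actin (Acta2). Hepatocytes themselves are known to make some matrix proteins, collagen XVIII among them.

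Promoter windows of 4 members from RefSeq (GRCm38.p6) are shown because these members had the smallest p-values in hepatocytes among those with an entry. Of the 106 members 73 have an entry, and Dcn is without one. Each window holds 250 bases before and 50 bases after the start in RefSeq, 5′ to 3′ on the strand of the gene. Col4a1 lies at chr8:11198423-11312826 on the minus strand, Col4a2 at chr8:11312805-11449287 on the plus strand, Sparc at chr11:55394500-55423183 on the minus strand and Bgn at chrX:73483602-73495933 on the plus strand. These gene spans are those of the deposited liver annotation. The RefSeq start of Sparc, at position 55420080, lies inside its span, so the printed window (chr11:55420031-55420330) is not at the outermost start of that annotation. Capitals mark matches, on either strand, to 4 motifs. These are TATAAA, which is known as the TATA box, the CCAAT box with the letters of its name, GGGCGG, which is known as the GC box, and TGANTCA, the motif of the factor AP-1, where N is any base.
Col4a1: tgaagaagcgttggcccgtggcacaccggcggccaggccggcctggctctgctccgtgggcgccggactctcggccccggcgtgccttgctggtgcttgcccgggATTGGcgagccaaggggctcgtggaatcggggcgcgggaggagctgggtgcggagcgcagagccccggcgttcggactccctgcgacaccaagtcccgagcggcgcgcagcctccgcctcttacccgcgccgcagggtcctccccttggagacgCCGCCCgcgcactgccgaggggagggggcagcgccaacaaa
Col4a2: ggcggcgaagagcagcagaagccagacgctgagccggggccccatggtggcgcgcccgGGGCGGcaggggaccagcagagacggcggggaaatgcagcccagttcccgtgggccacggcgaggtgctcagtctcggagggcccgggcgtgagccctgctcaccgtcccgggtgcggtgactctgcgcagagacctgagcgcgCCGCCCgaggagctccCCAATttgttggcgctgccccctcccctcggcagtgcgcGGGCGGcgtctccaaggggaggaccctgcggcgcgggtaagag
Sparc: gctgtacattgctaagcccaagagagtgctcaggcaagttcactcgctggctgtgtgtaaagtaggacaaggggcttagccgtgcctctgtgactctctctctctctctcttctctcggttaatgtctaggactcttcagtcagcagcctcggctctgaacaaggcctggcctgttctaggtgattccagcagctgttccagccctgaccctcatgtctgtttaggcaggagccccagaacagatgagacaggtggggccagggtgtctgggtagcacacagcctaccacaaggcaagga
Bgn: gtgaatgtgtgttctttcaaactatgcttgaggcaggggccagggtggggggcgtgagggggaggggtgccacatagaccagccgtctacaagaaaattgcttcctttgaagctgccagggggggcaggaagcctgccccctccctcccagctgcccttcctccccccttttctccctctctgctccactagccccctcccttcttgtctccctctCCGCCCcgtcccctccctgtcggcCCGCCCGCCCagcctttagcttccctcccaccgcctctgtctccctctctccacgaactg
Col4a1 and Col4a2 start 21 bases apart on opposite strands, and their windows share 78 bases (chr8:11312777-11312854). The Col4a1 window held 1 CCAAT box and 1 GC box, the Col4a2 window 1 CCAAT box and 3 GC boxes, the Bgn window 3 GC boxes, and the Sparc window no match. Of 32851 windows of this length in the RefSeq table, 13.6% held the TATA box, 37.4% the CCAAT box, 35.7% the GC box and 7.81% the AP-1 motif. These matches describe letters only.

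Total counts ran from 24391627 to 47351126 in liver and from 9221488 to 9665309 in hepatocytes. The targeted genes did not check the labels. Samd8 stood between 38.0 and 51.7 CPM (counts scaled to the library total) in WT liver and between 50.3 and 59.0 CPM in the libraries labelled SMSrKO. In hepatocytes Samd8 was at 69.7 ± 3.57 CPM (SD, n = 3) in WT and 101 ± 2.94 in tKO, Sgms1 at 49.7 ± 3.34 in WT, 90.5 ± 5.55 in dKO and 58.7 ± 3.31 in tKO, and Sgms2 at 183 ± 7.69 in WT, 150 ± 15.8 in dKO and 150 ± 7.12 in tKO. These counts cover whole genes, and which exons were removed is not given in the sources used here. The names SMSrKO, dKO and tKO below therefore stand for the libraries so labelled, and every direction is one between labels. The protocol on the labels names subcutaneous fat for the SMSrKO experiment, but Adipoq and Plin1 had at most 3 counts in any liver library and Alb was between 38300 and 60900 CPM. The first liver WT library stood apart on the leading principal component (28.5% of the variance), at 48.7 where the remaining WT libraries lay between 9.1 and 15.3, and values without it are given for the liver members whose groups did not overlap and for those in which it was an outlier. Fold changes are log2 with their standard error (SE), from edgeR's quasi-likelihood test. This SE is the log2 value over the square root of the F statistic. It can be too small where a large fold rests on few WT counts. A gene was called at an adjusted p (Benjamini-Hochberg over all tested genes) under 0.05.

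In hepatocytes the basement membrane chains Col4a1, Col4a2 and Lama5, the collagen-binding Sparc and the membrane metalloprotease Mmp15 were called above WT in both knockouts. All of them had 10 or more counts in every WT library. The laminin chain Lama3 and the inhibitor Timp3 were called higher in both too. Neither reached 10 counts in every WT library, so they needed knockout libraries to pass the filter on low counts. Col27a1 and Col12a1 were called lower than WT in both knockouts. The WT and dKO libraries of Col27a1 overlapped, and Col12a1 fell by only 0.19 in dKO (log2). Of 92 members 44 had counts high enough to test. Of these, 29 were higher and 3 lower in dKO than in WT, and 30 were higher and 4 lower in tKO than in WT. Both comparisons use the same 3 WT libraries. The background is high in this experiment: of all 11471 genes tested, 24% were called higher and 20% lower in dKO, and 25.6% higher and 21.8% lower in tKO. The median log2 fold change of the 44 members was 1.26 in dKO and 1.04 in tKO, against -0.01 and -0.004 over all tested genes.

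The filter shaped those counts. Of the 44 members 13 had fewer than 10 counts in every WT library, passed only through the knockout groups, and were all called higher in both, so their count supports nothing. Among the other 31, which had a WT count of 10 or more, 16 were higher and 3 lower in dKO (51.6% and 9.68%), and 17 were higher and 4 lower in tKO (54.8% and 12.9%). The median over these 31 was 0.33 in dKO and 0.44 in tKO. This split does not remove the effect of the filter. A gene passed with as many libraries at the filter level as a group holds, whatever their group. Among the 31, Bgn, Adamts4, Timp3 and Lama3 did not reach 10 counts in every WT library. They too needed knockout libraries to pass, so their higher calls add nothing either. How many more of the 31 did so was not counted. The 48 members that could not be tested had at most 15 counts in any library. Their summed count was 39.9 to 51 in WT, 124 to 149 in dKO and 76 to 101 in tKO, without overlap, and 18 of them were at 0 in WT. The same sum over the other untested genes was not taken, so no background is given for it.

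Between the knockouts, more members were lower in tKO than were higher. Of the 44, 22 were lower and 7 higher in tKO, beside 15.2% lower and 14.3% higher over all tested genes, with a median of -0.42. The 13 members with fewer than 10 counts in every WT library held 10 of the lower calls and none of the higher ones (median -0.91). The other 31 gave 12 lower and 7 higher (median -0.27). Of the 44 members 16 were higher in both knockouts than in WT and lower in tKO than in dKO. Another 5 were higher in both and higher still in tKO, and 7 were called in no comparison. The spread among hepatocyte libraries was very small, with a biological coefficient of variation of 3.52% against 20.3% in liver. With the liver value put in its place, 24 members were higher and 0 lower in dKO (7.58% and 1.62% over all genes). In tKO 23 were higher and 1 was lower than in WT (7.65% and 3%). Against dKO, 1 was higher and 8 were lower in tKO (0.959% and 1.88%). The 13 members with fewer than 10 counts in every WT library gave 13 of the higher calls in each knockout. The other 31 gave 11 higher and 0 lower in dKO, and 10 higher and 1 lower in tKO. Between tKO and dKO those 31 gave 1 higher and 3 lower.

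**Figure D1:**
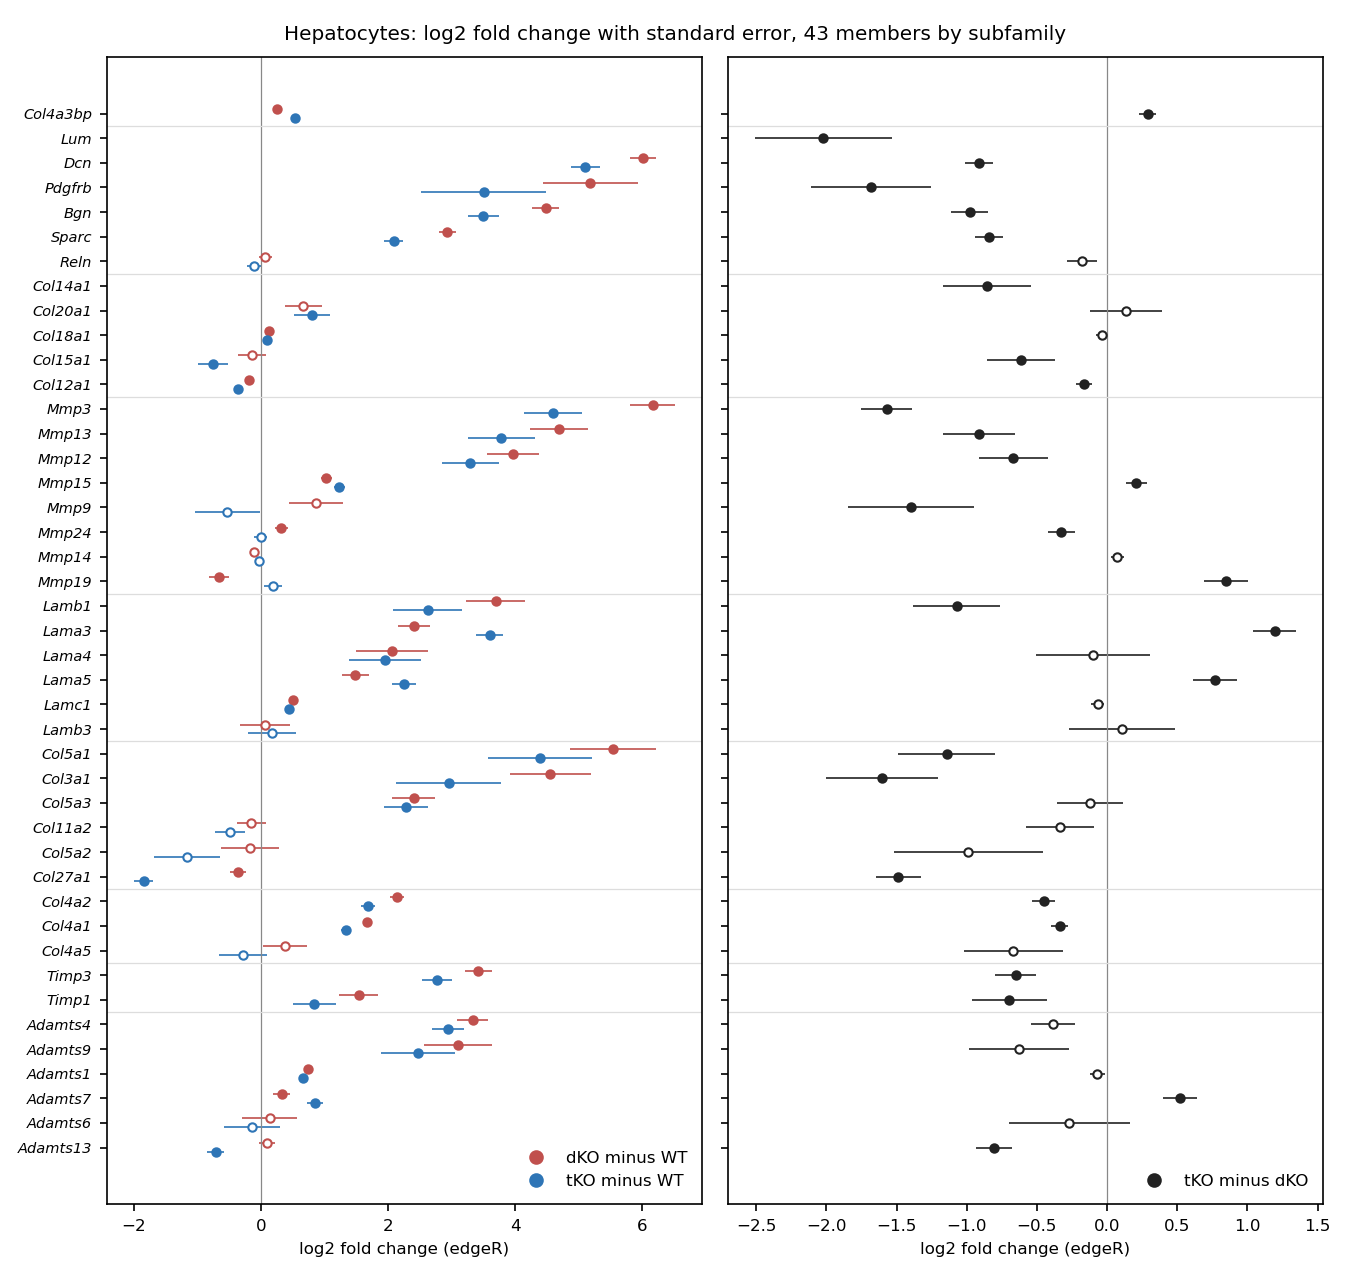
Log2 fold change (horizontal axis, bars are SE) of 43 of the 44 tested members in hepatocytes, ordered by subfamily, with dKO minus WT and tKO minus WT on the left and tKO minus dKO on the right. Filled points were called at an adjusted p under 0.05, and Lum and Col14a1 are left off the left panel because no WT library listed them. Dcn, Mmp3 and Bgn lie far to the right on the left panel, and most points lie left of 0 on the right panel.

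Among the 10 genes written out in the rule, 5 of the 6 tested were higher in both knockouts and lower in tKO than in dKO. Of these, Dcn, Lum and Pdgfrb had fewer than 10 counts in every WT library and passed the filter only through the knockouts. Bgn did not reach 10 counts in every WT library and needed knockout libraries to pass too. Higher calls of Dcn, Lum, Pdgfrb and Bgn therefore add nothing to that count. Over all tested genes 24% were higher in dKO, 25.6% higher in tKO and 15.2% lower in tKO than in dKO. Decorin (Dcn, chr10:97479500-97518162), the small proteoglycan that binds collagen fibrils, had expected counts of 3, 5 and 4 in WT, 260, 279 and 272 in dKO, and 151, 155 and 143 in tKO. The 3 groups did not overlap. Its fold change was 6.02 ± 0.20 in dKO (SE, adjusted p = 1.13e-41), 5.11 ± 0.23 in tKO (adjusted p = 3.84e-33) and -0.91 ± 0.10 between tKO and dKO (adjusted p = 1.71e-12). Both folds against WT rest on few WT counts, so their SE may be too small. Dcn was the fifth member per length in dKO, at 16.0 ± 0.59 FPKM (SD, n = 3). Biglycan (Bgn), its close relative, had expected counts of 10, 4 and 7 in WT, 182, 148 and 152 in dKO, and 76, 90 and 89 in tKO, and rose by 4.48 ± 0.22 in dKO and 3.5 ± 0.25 in tKO (adjusted p = 4.47e-31 and 1.2e-21). Bgn was lower in tKO than in dKO (log2 fold change -0.98 ± 0.13, adjusted p = 3.79e-09). Osteonectin (Sparc), a secreted collagen-binding glycoprotein, had expected counts of 29, 34 and 37 in WT, 273, 268 and 236 in dKO, and 166, 145 and 141 in tKO. WT libraries already held Sparc, so its rise of 2.94 ± 0.14 in dKO and 2.09 ± 0.15 in tKO is better measured (adjusted p = 1.36e-32 and 1.82e-21).

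Lumican (Lum), a keratan sulfate proteoglycan that sits beside Dcn on chromosome 10 (chr10:97565501-97572703), was listed in no WT library. It had expected counts of 19, 13 and 12 in dKO and 2, 7 and 2 in tKO, with no overlap between dKO and tKO (log2 fold change -2.02 ± 0.49, adjusted p = 0.000681). Without the eighth library, a tKO one, that difference was -2.86. No fold against WT is given for it. The platelet-derived growth factor receptor beta (Pdgfrb), a pericyte and stellate cell receptor, had expected counts of 0, 1 and 0 in WT, 10, 18 and 22 in dKO, and 4, 6 and 6 in tKO. Summed over libraries and scaled to their totals, the dKO to WT ratio of Pdgfrb was 49.6 (exact 95% counting interval 8.5 to 2000) and the tKO to WT ratio 15.5 (2.4 to 649). This interval covers counting error only and rests on a single WT count. Dcn, Bgn, Lum and Pdgfrb were called in all 3 comparisons with the liver dispersion too.

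Of the genes written out in the rule, Lrat, Des, Acta2 and Lox were near 0 in all 3 groups. Lrat, the enzyme that stores vitamin A as retinyl ester, had expected counts of 0, 0 and 0 in WT, 0, 2 and 0 in dKO, and 1, 0 and 1 in tKO. Desmin (Des), the muscle intermediate filament of stellate cells, had expected counts of 0, 0 and 1 in WT, 0, 7 and 6 in dKO, and 2, 4 and 2 in tKO. Acta2 had expected counts of 0, 0 and 0 in WT, 2, 2 and 2 in dKO, and 1, 0 and 1 in tKO, and the collagen crosslinking enzyme Lox expected counts of 0, 1 and 0 in WT, 5, 0 and 0 in dKO, and 0, 0 and 1 in tKO. Expression of these 4 genes was too low to test. Reelin (Reln), a secreted glycoprotein made by stellate cells and also listed here in every WT hepatocyte library, had expected counts of 166, 178 and 140 in WT, 179, 189 and 147 in dKO, and 163, 165 and 146 in tKO. The Reln groups overlapped, with 0.07 ± 0.11 in dKO and -0.11 ± 0.11 in tKO (adjusted p = 0.625 and 0.441).

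**Figure D2:**
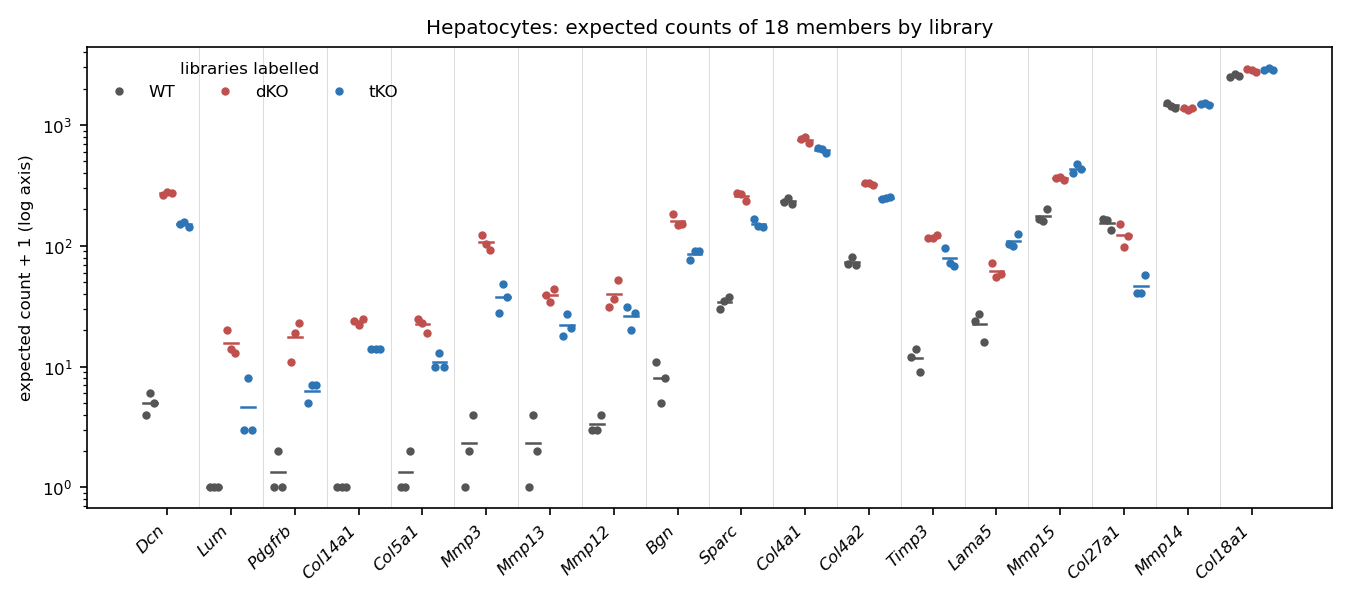
Expected count plus 1 (vertical log axis) of 18 members in each hepatocyte library, with points for libraries and lines for group means of WT, dKO and tKO. From Dcn to Timp3 the dKO libraries lie above the tKO libraries or beside them and WT lies lowest, Lama5 and Mmp15 are highest in tKO, Col27a1 is lowest in tKO, and Mmp14 and Col18a1 lie nearly level.

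Collagen IV, the sheet-forming collagen of basement membranes, rose through its alpha 1 and alpha 2 chains, the pair whose shared promoter region is printed above. Col4a1 had expected counts of 231, 248 and 222 in WT, 762, 800 and 705 in dKO, and 650, 635 and 584 in tKO. Its fold change was 1.68 ± 0.07 in dKO (adjusted p = 9.37e-35) and 1.34 ± 0.07 in tKO (adjusted p = 6.07e-28). Col4a2 followed with expected counts of 70, 80 and 68 in WT, 330, 329 and 316 in dKO, and 242, 248 and 253 in tKO, and with 2.14 ± 0.10 and 1.69 ± 0.11 (adjusted p = 4e-31 and 9.39e-24). Neither gene's groups overlapped, and both chains were lower in tKO than in dKO (-0.34 ± 0.06 and -0.45 ± 0.08, adjusted p = 5.54e-06 and 6.54e-06). The third tested chain, Col4a5 on the X chromosome, had expected counts of 12, 11 and 14 in WT, 19, 15 and 15 in dKO, and 16, 8 and 8 in tKO and was called in no comparison (adjusted p = 0.385 in dKO), although its dKO libraries all lay just above its WT libraries. The other 3 chains, Col4a3, Col4a4 and Col4a6, were too low to test.

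Of 10 fibrillar collagens 6 could be tested. Col3a1, Col5a1 and Col5a3 had fewer than 10 counts in every WT library, passed the filter only through the knockouts and were called higher in both. Col27a1 was called lower in both. Col3a1 had expected counts of 1, 0 and 1 in WT, 23, 21 and 12 in dKO, and 6, 8 and 5 in tKO and Col5a1 expected counts of 0, 0 and 1 in WT, 24, 22 and 18 in dKO, and 9, 12 and 9 in tKO. For Col3a1 the dKO to WT ratio of summed counts was 27.8 (95% interval 7.33 to 235) and the tKO to WT ratio 9.19 (2.22 to 81.3). For Col5a1 they were 63.4 (11 to 2540) and 29.0 (4.82 to 1180). Both chains were lower in tKO than in dKO (-1.60 ± 0.40 and -1.14 ± 0.34, adjusted p = 0.000994 and 0.00685). Col5a3 had expected counts of 6, 3 and 9 in WT, 29, 33 and 36 in dKO, and 31, 36 and 27 in tKO and rose by 2.40 ± 0.34 in dKO and 2.28 ± 0.34 in tKO, with no difference called between them (adjusted p = 0.75). The collagen I chains Col1a1 and Col1a2, the bulk of scar collagen, had at most 10 counts in a library and could not be tested.

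Col27a1, a fibril-forming chain of cartilage and other tissues, was the only fibrillar chain called lower than WT. It had expected counts of 166, 164 and 133 in WT, 151, 96 and 119 in dKO, and 40, 40 and 56 in tKO. WT and dKO overlapped, with a fold change of -0.36 ± 0.13 (adjusted p = 0.0189) that was not called with the liver dispersion, while tKO lay below both. Col27a1 fell by 1.84 ± 0.15 in tKO against WT (log2, adjusted p = 4.12e-17) and by 1.49 ± 0.16 against dKO (adjusted p = 3.86e-12). Col11a2 had expected counts of 32, 34 and 34 in WT, 28, 30 and 33 in dKO, and 23, 32 and 20 in tKO, with no call, although its tKO libraries all lay below its WT libraries in CPM. Col5a2 had expected counts of 15, 8 and 7 in WT, 11, 13 and 3 in dKO, and 5, 1 and 8 in tKO, with overlapping groups and no call (adjusted p = 0.795 and 0.0604).

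Of the other collagens, 5 of 20 could be tested. Col14a1, a fibril-associated collagen of fibroblasts, was listed in no WT library and had expected counts of 23, 21 and 24 in dKO and 13, 13 and 13 in tKO, lower in tKO than in dKO (-0.86 ± 0.32, adjusted p = 0.0311). Col18a1, the basement membrane collagen from which endostatin is cut, was the most abundant member per length in all 3 groups, at 49.6 ± 0.924 FPKM in WT, 54.4 ± 1.45 in dKO and 54.0 ± 1.70 in tKO (SD, n = 3). It had expected counts of 2517, 2637 and 2552 in WT, 2923, 2853 and 2758 in dKO, and 2831, 2969 and 2883 in tKO. Col18a1 rose by 0.13 ± 0.04 in dKO and 0.09 ± 0.04 in tKO (adjusted p = 0.00672 and 0.0492), and neither was called with the liver dispersion. It held 28.7% of all member counts in WT, 22.7% in dKO and 24% in tKO. Col12a1, a fibril-associated chain, had expected counts of 906, 908 and 911 in WT, 854, 795 and 776 in dKO, and 767, 763 and 724 in tKO and fell by 0.19 ± 0.05 in dKO and 0.35 ± 0.06 in tKO (adjusted p = 0.00345 and 8.19e-08). Col15a1, the relative of Col18a1, had expected counts of 29, 49 and 34 in WT, 32, 36 and 35 in dKO, and 20, 24 and 26 in tKO and was lower in tKO than in WT (-0.75 ± 0.24, adjusted p = 0.0063). In dKO the Col15a1 groups overlapped (adjusted p = 0.649). Col20a1 was higher in tKO than in WT (0.81 ± 0.28, adjusted p = 0.0135) and not called in dKO (adjusted p = 0.0508). The tKO call of Col20a1 was lost by DESeq2 (0.059), with the liver dispersion (0.148) and without the second WT or the eighth library, a tKO one (adjusted p = 0.0689 and 0.0694).

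Laminins are the cross-shaped heterotrimers of basement membranes. Of 7 tested chains 5 were higher in dKO than in WT and 6 in tKO, and 3 were higher and 1 lower in tKO than in dKO. Over all tested genes 24% were higher in dKO and 25.6% in tKO, and 14.3% were higher and 15.2% lower in tKO than in dKO. Lamb1 and Lama4 had fewer than 10 counts in every WT library and passed the filter only through the knockouts. Lama3 did not reach 10 counts in every WT library and needed knockout libraries to pass too. Lama3, an alpha chain of epithelial laminins, had expected counts of 10, 11 and 9 in WT, 44, 62 and 57 in dKO, and 124, 139 and 126 in tKO, with 2.41 ± 0.25 in dKO, 3.60 ± 0.21 in tKO and 1.19 ± 0.15 between them (adjusted p = 1.37e-13, 5.85e-26 and 4.96e-10). Lama5, the alpha 5 chain of many epithelial and vascular basement membranes, had expected counts of 23, 26 and 15 in WT, 71, 54 and 57 in dKO, and 102, 98 and 124 in tKO. Each Lama5 group lay apart from the others, and the difference between tKO and dKO was 0.77 ± 0.16 (adjusted p = 5.06e-05). Lamb3, an epithelial beta chain, was called in no comparison.

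Lamb1, the common beta chain, had expected counts of 3, 1 and 2 in WT, 28, 17 and 38 in dKO, and 10, 16 and 15 in tKO, with 3.69 ± 0.47 in dKO, 2.62 ± 0.55 in tKO and -1.07 ± 0.31 between them (adjusted p = 1.82e-10, 3.87e-05 and 0.00463). Lamc1, the common gamma chain and the third most abundant member per length in WT, had expected counts of 1218, 1360 and 1334 in WT, 1967, 1842 and 1826 in dKO, and 1802, 1822 and 1984 in tKO. It rose by 0.51 ± 0.05 in dKO and 0.44 ± 0.05 in tKO (adjusted p = 7.39e-16 and 2.69e-13), with no difference called between the knockouts (adjusted p = 0.278). Lama4, a chain of vessel walls, was higher in dKO and in tKO than in WT (2.06 ± 0.56 and 1.96 ± 0.57, adjusted p = 0.00165 and 0.00275). Its tKO and WT libraries overlapped, its folds were 2.84 and 2.74 without the second WT library, and its tKO call was lost without the ninth library, a tKO one (1.28, adjusted p = 0.125).

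Mmp3, Mmp13 and Mmp12, secreted metalloproteases of a gene cluster on chromosome 9, had fewer than 10 counts in every WT library and likewise passed the filter only through the knockouts. Stromelysin 1 (Mmp3, chr9:7445822-7455975), which cuts proteoglycans and activates other metalloproteases, had expected counts of 0, 1 and 3 in WT, 122, 103 and 92 in dKO, and 27, 47 and 37 in tKO. The fold change of Mmp3 was 6.17 ± 0.35 in dKO, 4.59 ± 0.45 in tKO and -1.57 ± 0.18 between them (adjusted p = 6.68e-27, 8.03e-15 and 1.86e-11). Collagenase 3 (Mmp13, chr9:7272514-7283331) had expected counts of 0, 3 and 1 in WT, 38, 33 and 43 in dKO, and 17, 26 and 20 in tKO and macrophage elastase (Mmp12, chr9:7344381-7369499) expected counts of 2, 2 and 3 in WT, 30, 35 and 51 in dKO, and 30, 19 and 27 in tKO. Their folds were 4.69 ± 0.46 and 3.96 ± 0.41 in dKO (adjusted p = 8.07e-15 and 6e-14) and 3.78 ± 0.53 and 3.30 ± 0.45 in tKO (adjusted p = 3.08e-09 and 1.34e-09). All 3 were lower in tKO than in dKO (adjusted p = 1.86e-11, 0.00364 and 0.0291). Without the third WT library the folds of Mmp3 were 7.39 in dKO and 5.82 in tKO, and without the second those of Mmp13 were 5.92 and 5.01, so neither size is closely set. Their neighbours on that chromosome, Mmp8, Mmp27 and Mmp7, had at most 8 counts in any library.

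The membrane-type metalloproteases behaved otherwise. Mmp14, the cell-surface collagenase that activates Mmp2, was the second most abundant member per length, with expected counts of 1521, 1443 and 1394 in WT, 1372, 1337 and 1388 in dKO, and 1493, 1536 and 1466 in tKO. Its WT libraries lay just above the dKO libraries and overlapped the tKO libraries, and it was called in neither knockout (-0.11 ± 0.05 in dKO and -0.03 ± 0.05 in tKO, adjusted p = 0.0599 and 0.591). With the WT and dKO libraries fitted alone the dKO difference of Mmp14 was called, as lower (adjusted p = 0.0376). Mmp15, its membrane-bound relative (chr8:95352268-95375080), had expected counts of 165, 158 and 201 in WT, 366, 367 and 350 in dKO, and 401, 474 and 429 in tKO, and rose by 1.03 ± 0.09 in dKO and 1.24 ± 0.09 in tKO (adjusted p = 2.64e-17 and 4.04e-22). The step from dKO to tKO was small (0.21 ± 0.08, adjusted p = 0.0288). Of the other 3 tested members of the family, Mmp24 was higher and Mmp19 lower in dKO (0.33 ± 0.10 and -0.66 ± 0.16), neither was called in tKO, and Mmp9 was called only as lower in tKO than in dKO (-1.40 ± 0.45, adjusted p = 0.0123). That call of Mmp9 was lost without the fourth, seventh or eighth library (adjusted p = 0.061, 0.0837 and 0.057). The dKO calls of Mmp24 and Mmp19 were lost with the liver dispersion (adjusted p = 0.716 and 0.14).

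Both tested inhibitors rose, though Timp3 did not reach 10 counts in every WT library and needed knockout libraries to pass the filter. Timp3, the TIMP that stays bound to the matrix, had expected counts of 11, 13 and 8 in WT, 114, 114 and 123 in dKO, and 95, 71 and 67 in tKO, with 3.42 ± 0.22 in dKO and 2.77 ± 0.23 in tKO (adjusted p = 2.76e-24 and 9.56e-18). Timp1, the soluble inhibitor raised in liver fibrosis, had expected counts of 10, 10 and 11 in WT, 23, 33 and 36 in dKO, and 14, 21 and 24 in tKO. Timp1 rose by 1.54 ± 0.31 in dKO (adjusted p = 1.77e-05) and 0.84 ± 0.34 in tKO (adjusted p = 0.032), and the tKO call was lost with the liver dispersion. In liver annotation 21.3% of the exon bases of Timp3 overlap exons of Syn3. For Mmp19 23.1% overlap exons of Tmem198b, and for Mmp24 13.6% overlap exons of BC029722. Since no strand setting is given, the reads of such overlapping genes cannot be told apart.

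Of the ADAMTS proteases 6 of 13 could be tested. Adamts1, an aggrecan- and versican-cutting protease, was the fourth most abundant member per length in every group, with expected counts of 613, 603 and 644 in WT, 1080, 1059 and 1003 in dKO, and 1121, 988 and 1011 in tKO. It rose by 0.74 ± 0.06 in dKO and 0.67 ± 0.06 in tKO (adjusted p = 7.21e-20 and 9.69e-18) and the difference between the knockouts, -0.07 ± 0.05, was not called (adjusted p = 0.341). Adamts4, aggrecanase 1, had expected counts of 8, 7 and 10 in WT, 84, 91 and 83 in dKO, and 72, 59 and 75 in tKO, with 3.33 ± 0.24 and 2.95 ± 0.25 (adjusted p = 2.99e-21 and 1.33e-17). Adamts7, which cuts cartilage oligomeric matrix protein, had expected counts of 85, 107 and 78 in WT, 131, 97 and 116 in dKO, and 174, 160 and 181 in tKO. The Adamts7 groups WT and dKO overlapped (0.33 ± 0.13, adjusted p = 0.0361), while tKO lay above both (0.85 ± 0.12 against WT, adjusted p = 1.22e-08). Adamts13, the plasma protease that cuts von Willebrand factor and is made in liver by stellate cells, had expected counts of 121, 132 and 139 in WT, 141, 150.3 and 133 in dKO, and 69, 102 and 82.1 in tKO. It was lower in tKO than in WT (-0.71 ± 0.13) and than in dKO (-0.80 ± 0.13, adjusted p = 4.15e-06 and 4.32e-07), and was not called in dKO (adjusted p = 0.552). Adamts9 had expected counts of 0, 2 and 4 in WT, 27, 12 and 16 in dKO, and 16, 8 and 13 in tKO. It was called higher in both knockouts (3.10 ± 0.53 and 2.48 ± 0.58, adjusted p = 8.54e-07 and 0.000237). Since it passed the filter only through them, these calls add no support. Without the third WT library the folds of Adamts9 were 4.02 and 3.39. Adamts4 did not reach 10 counts in every WT library and needed knockout libraries to pass too. Adamts6 was called in no comparison.

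Col4a3bp, the ceramide transfer protein that carries ceramide from the endoplasmic reticulum to the Golgi, had expected counts of 475, 430 and 440 in WT, 524, 522 and 579 in dKO, and 703, 659 and 709 in tKO. The 3 groups did not overlap. It rose by 0.26 ± 0.07 in dKO, by 0.54 ± 0.06 in tKO and by 0.29 ± 0.06 from dKO to tKO (adjusted p = 0.000958, 1.25e-11 and 0.000132), and none of these calls held with the liver dispersion.

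Some of these calls were narrow. Against WT, the dKO calls of Adamts7 and Col27a1 were lost without any 1 of 4 libraries (adjusted p 0.0826 to 0.23 and 0.0501 to 0.226) and by DESeq2 (0.101 and 0.0911), and the tKO calls of Timp1 and Col18a1 without any 1 of 5 and 7 libraries (0.0587 to 0.147 and 0.0523 to 0.232) and by DESeq2 (0.0914 and 0.0701). The tKO call of Col15a1 was lost without the second WT library (adjusted p = 0.123). Between tKO and dKO, the call of Lamb1 was lost without the sixth library, a dKO one (adjusted p = 0.102). The calls of Col12a1, Col14a1, Col15a1, Mmp12, Mmp15 and Timp1 between tKO and dKO were each lost without any 1 of several libraries, with adjusted p up to 0.128, 0.0867, 0.149, 0.297, 0.241 and 0.204. DESeq2 lost the tKO against dKO calls of Col14a1, Col15a1, Col5a1, Lamb1, Mmp12, Mmp15 and Timp1 (adjusted p 0.0539 to 0.154). Without the fifth library, a dKO one, Pdgfrb no longer passed the filter on low counts. The liver dispersion ended the tKO calls against WT of Adamts1, Adamts13, Lamc1 and Col15a1 (adjusted p = 0.0556, 0.068, 0.34 and 0.139) and the dKO call of Lamc1 (0.244), and those of Col12a1 and Adamts7 in dKO (0.926 and 0.732) and of Col12a1 in tKO (0.541). Between tKO and dKO it left the calls of Col27a1, Col3a1, Lama3, Mmp3, Bgn, Dcn, Lum, Pdgfrb and Sparc. Dcn, Bgn, Sparc, Col4a1, Col4a2, Mmp3, Timp3, Lama3 and Lama5 kept all 3 of their calls without any 1 library.

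Markers of other liver cells also differed between the groups. Only some lists were highest in dKO, as most tested members near 0 in WT were. All 16 tested genes of a 17-gene liver endothelium list were higher in dKO and 15 in tKO, and 13 were lower in tKO than in dKO. Over all tested genes 24% were higher in dKO, 25.6% higher in tKO and 15.2% lower in tKO than in dKO. How many genes of these marker lists passed the filter only through the knockouts was not counted. The summed level of that list was 32.5 to 36.1 CPM in WT, 214 to 229 in dKO and 126 to 137 in tKO, the same order as the summed level of the 10 genes written out in the rule (20.3 to 23.9, 91.1 to 99.2 and 55.0 to 60.2 CPM). VE-cadherin (Cdh5) went from 6.30 CPM in WT to 58.0 in dKO and 31.9 in tKO. All 5 tested genes of a 13-gene macrophage list were higher in both, with a summed level of 121 to 137 CPM in WT, 329 to 348 in dKO and 381 to 398 in tKO. The summed level of portal fibroblast and mesothelial markers was likewise highest in tKO (2.58 to 3.58 CPM in WT, 5.75 to 8.26 in dKO and 11.5 to 13.5 in tKO). Of the 11 genes on that list only 6 were measured, 2 of these were at 0 in tKO, and only 1 could be tested. That sum therefore says little about the list as a whole. Cholangiocyte markers summed to 278 to 287 CPM in WT, 431 to 461 in dKO and 304 to 322 in tKO, but single genes went both ways. Of 5 tested, 2 were higher and 1 lower in dKO, and 2 were higher and 2 lower in tKO. Over all tested genes 20% were lower in dKO and 21.8% in tKO. Of 16 stellate cell markers outside the members 8 could be tested, and 4 were higher in each knockout. In tKO 1 was lower than in WT and 1 lower than in dKO. The summed level was 90.8 to 101 CPM in WT, 125 to 142 in dKO and 112 to 131 in tKO. The summed level of 11 hepatocyte markers was 57378 to 59411 CPM in WT, 51132 to 52112 in dKO and 46692 to 48476 in tKO. Most of that sum was Alb, at 47300 to 49300 CPM in WT, 41400 to 41900 in dKO and 37400 to 38700 in tKO. Of the 11 markers 3 were called higher and 3 lower in dKO, and 3 higher and 4 lower in tKO. The part of these other cells in the results on the members was not tested. In bulk RNA, more cells of a type and more RNA per cell cannot be told apart.

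**Figure D3:**
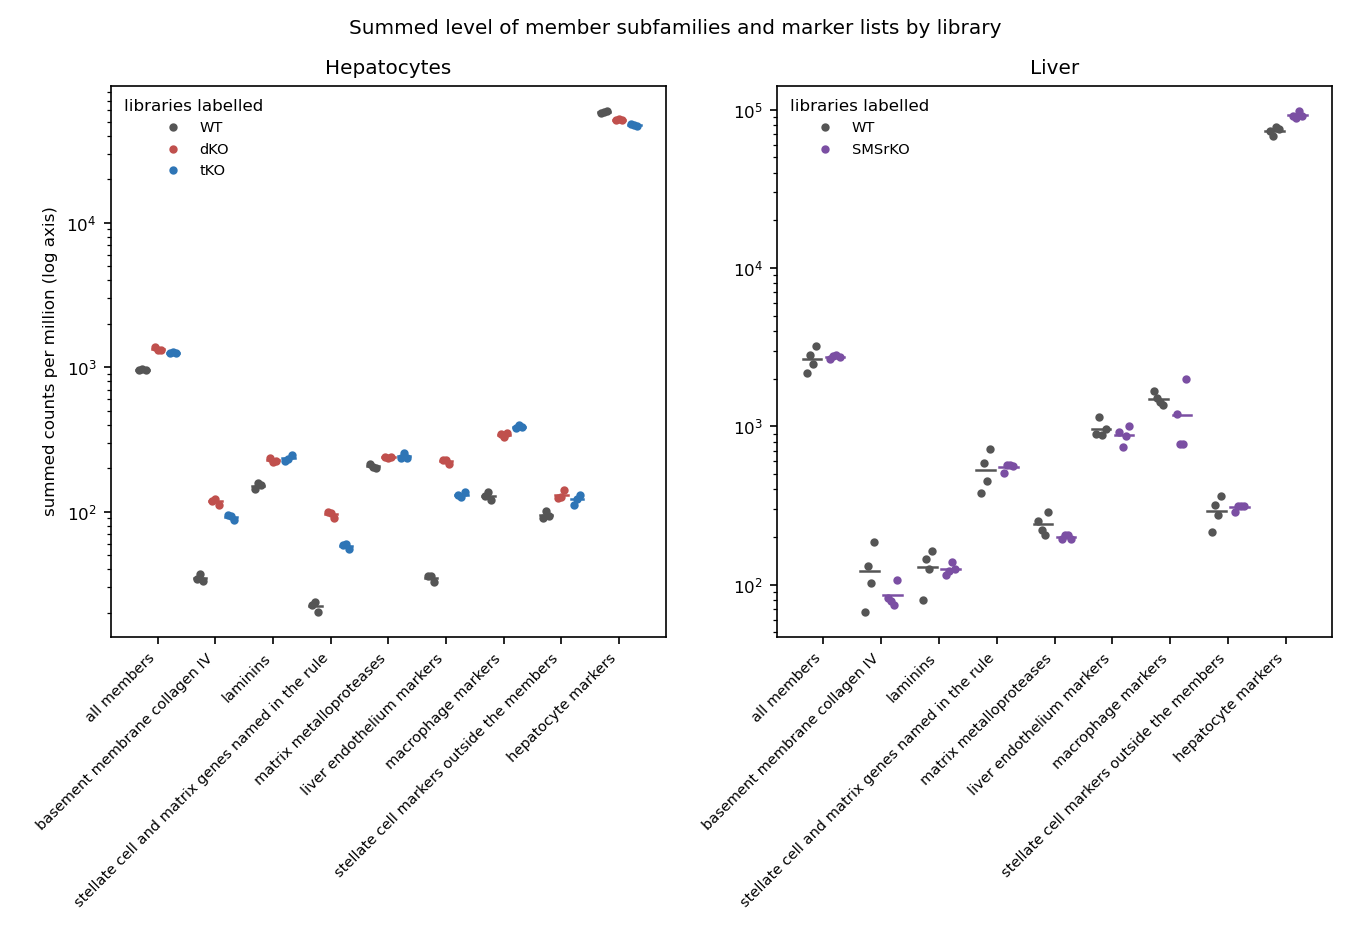
Summed CPM (vertical log axis) of member subfamilies and marker lists in each hepatocyte library (left) and liver library (right), with points for libraries and lines for group means. In hepatocytes collagen IV, the 10 genes named in the rule and the endothelium list are lowest in WT and highest in dKO, and in liver the 2 groups overlap for collagen IV, laminins, the 10 genes and the endothelium list.

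In whole liver on the diet no member was called between SMSrKO and WT. Of 81 tested members 0 were higher and 0 lower by edgeR, 7 had an unadjusted p under 0.05, and the median log2 fold change was -0.001. Over all 15820 tested genes edgeR called 0.12% higher and 0.114% lower, so few calls could be looked for, and 2075 genes had an unadjusted p under 0.05. DESeq2 called 2 members higher (Adamts7 and Col18a1) and 1 lower (Mmp15), beside 1.52% higher and 1.49% lower over all genes. Groups did not overlap for 6 of the 81 members, 5 higher and 1 lower in SMSrKO, beside 3.79% higher and 4.32% lower over all tested genes. The 22 members that could not be tested had at most 34 counts in a library.

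**Figure D4:**
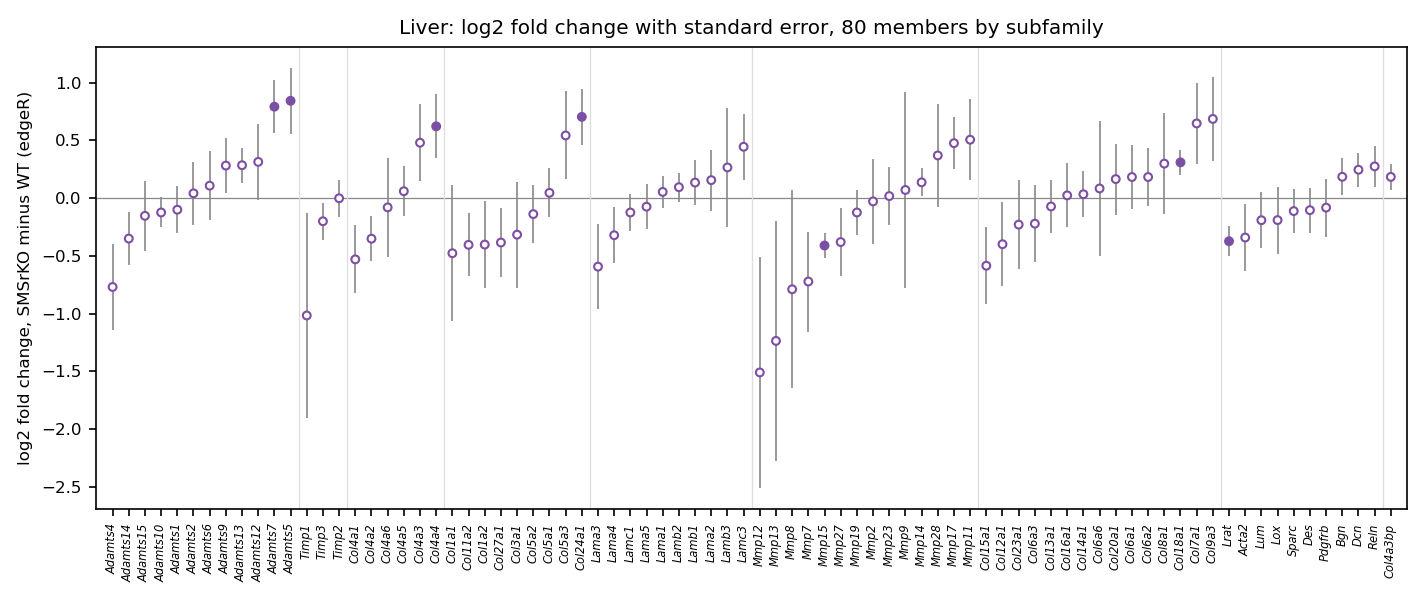
Log2 fold change of SMSrKO minus WT liver (vertical axis, bars are SE) for 80 of the 81 tested members, ordered by subfamily, with filled points for an unadjusted p under 0.05. The 7 filled points did not pass adjustment, Adamts7 and Adamts5 are the highest and Mmp12 and Mmp13 the lowest, with wide bars.

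Among proteases the liver groups lay furthest apart for Adamts7 (chr9:90163069-90208071), at 8.7, 19.2, 14.3 and 20.3 CPM in WT and 24.2, 30.2, 27.2 and 26.3 CPM in SMSrKO. Every SMSrKO library exceeded every WT library. The fold change was 0.79 ± 0.23 with an adjusted p of 0.21 by edgeR and 0.0345 by DESeq2, and without the first WT library it was 0.59 (adjusted p = 0.0743 by edgeR). Adamts5, aggrecanase 2, had 1.16, 2.42, 1.62 and 2.87 CPM in WT and 2.87, 3.7, 3.3 and 4.5 CPM in SMSrKO (0.84 ± 0.28, adjusted p = 0.255, and 0.64 without the first WT library). Its lowest SMSrKO library lay only just above its highest WT library. Adamts4 ran the other way at 0.689, 2.32, 2.26 and 2.14 CPM in WT and 0.869, 1.07, 0.915 and 1.41 CPM in SMSrKO (-0.77 ± 0.37, adjusted p = 0.408, and -1.06 without the first WT library, adjusted p = 0.0803). Adamts1 had 13.5, 22.9, 19.8 and 29.4 CPM in WT and 18.1, 19.1, 19.1 and 23.4 CPM in SMSrKO, Adamts10 15.5, 20.3, 17.9 and 23.5 CPM in WT and 16, 19.2, 17.1 and 18.5 CPM in SMSrKO and Adamts13 10.2, 14.2, 11.9 and 16.6 CPM in WT and 14.6, 15.2, 18.5 and 16.1 CPM in SMSrKO, all with overlapping groups (adjusted p = 0.865, 0.717 and 0.454).

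Mmp15 was the one member lower in every SMSrKO library than in every WT library, at 52.9, 53, 46.3 and 60.2 CPM in WT and 43.8, 40.2, 41.9 and 34 CPM in SMSrKO. Its fold change was -0.41 ± 0.10 (adjusted p = 0.154 by edgeR, 0.033 by DESeq2), and -0.42 without the first WT library (adjusted p = 0.119 by edgeR). Mmp17, a membrane-anchored family member, had 0.56, 0.596, 0.677 and 0.754 CPM in WT and 0.869, 0.961, 0.948 and 0.818 CPM in SMSrKO, with every SMSrKO library above every WT library (0.48 ± 0.22, adjusted p = 0.397, and 0.40 without the first WT library). Mmp19 was the most abundant metalloprotease per length (54.0 ± 11.8 TPM in WT and 48.1 ± 6.53 in SMSrKO, SD, n = 4), at 114, 62.5, 83.6 and 71.7 CPM in WT and 86.3, 87.5, 71.5 and 59.8 CPM in SMSrKO with overlapping groups. Mmp14 had 71.9, 50.5, 51.4 and 58.5 CPM in WT and 58.6, 66.1, 70.7 and 60.2 CPM in SMSrKO, likewise overlapping. Macrophage elastase Mmp12 varied widely within WT, at 0.431, 18.6, 13.5 and 58.1 CPM in WT and 5.04, 7.51, 10.9 and 8.16 CPM in SMSrKO, so its fold of -1.51 ± 1.0 was not called (adjusted p = 0.562). Mmp7, matrilysin, had 0.689, 1.03, 0.64 and 0.905 CPM in WT and 0.174, 0.249, 0.817 and 0.665 CPM in SMSrKO (-0.72 ± 0.43, adjusted p = 0.51).

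Of the inhibitors, Timp1 had 0.0862, 0.596, 0.339 and 1.87 CPM in WT and 0.0434, 0.427, 0.196 and 0.665 CPM in SMSrKO, a wide range within both groups. Timp2 had 14.9, 22.7, 17.8 and 26.1 CPM in WT and 17.9, 21.4, 21.6 and 20.5 CPM in SMSrKO and Timp3 20.4, 30.8, 28.6 and 38.5 CPM in WT and 27.3, 23.8, 26.1 and 25.7 CPM in SMSrKO, and none of the 3 was called (adjusted p = 0.661, 0.999 and 0.631).

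Col18a1, which held 39.8% of all member counts in WT liver and 44.6% in SMSrKO, was the highest member per length here too, at 323 ± 13.5 TPM in WT and 386 ± 21.9 in SMSrKO (SD, n = 4). It stood at 1026, 1002, 1068 and 956 CPM in WT and 1333, 1278, 1317 and 1098 CPM in SMSrKO. All SMSrKO libraries were above all WT libraries, with a fold change of 0.31 ± 0.11 (adjusted p = 0.28 by edgeR, 0.0184 by DESeq2), and 0.31 without the first WT library. Summed hepatocyte markers were also higher in SMSrKO, at 68066 to 77938 CPM in WT and 88334 to 97932 in SMSrKO. Alb alone was at 38300 to 49400 CPM in WT and 53200 to 60900 in SMSrKO, and none of the 11 markers was called. The part of these markers in the Col18a1 values was not tested. Col14a1 had 57.9, 101, 76 and 118 CPM in WT and 87.9, 87.5, 81.7 and 104 CPM in SMSrKO and Col15a1 23.3, 10.4, 13.1 and 12.7 CPM in WT and 14.2, 10.4, 10.2 and 5.17 CPM in SMSrKO, with overlapping groups (adjusted p = 0.956 and 0.494). The scarce chains Col7a1, anchoring fibril collagen, and Col9a3, a cartilage collagen, had 0.452, 0.331, 0.489 and 0.513 CPM in WT and 0.391, 0.854, 0.49 and 1.02 CPM in SMSrKO and 0.237, 0.331, 0.263 and 0.272 CPM in WT and 0.434, 0.356, 0.262 and 0.69 CPM in SMSrKO (adjusted p = 0.462 and 0.45).

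No fibrillar collagen was called in liver. Col3a1 had 18.6, 51.2, 38.6 and 92.8 CPM in WT and 29.2, 44.3, 30.8 and 57 CPM in SMSrKO (-0.32 ± 0.46, adjusted p = 0.803). The highest and the lowest Col3a1 library were both WT. Col27a1 had 29.2, 32.2, 64.6 and 62.2 CPM in WT and 47.7, 37.1, 28.9 and 30.5 CPM in SMSrKO, Col11a2 3.04, 1.85, 2.78 and 2.38 CPM in WT and 1.78, 1.32, 1.57 and 2.89 CPM in SMSrKO and Col5a3 8.44, 16.6, 20.5 and 21.4 CPM in WT and 11.7, 33.7, 20.8 and 30.9 CPM in SMSrKO, none of them called (adjusted p = 0.618, 0.558 and 0.577). Col24a1, a minor fibrillar chain at under 1 CPM, had 0.431, 0.563, 0.753 and 0.603 CPM in WT and 0.869, 0.961, 0.981 and 0.972 CPM in SMSrKO, with every SMSrKO library above every WT library (0.70 ± 0.24, adjusted p = 0.264, and 0.57 without the first WT library).

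In the basement membrane subfamilies, Col4a1 had 38.6, 73.5, 63.6 and 116 CPM in WT and 51.7, 46.5, 43.2 and 60.6 CPM in SMSrKO and Col4a2 26.2, 40.8, 35.9 and 53.4 CPM in WT and 30.2, 29.7, 26 and 36.4 CPM in SMSrKO, with fold changes of -0.53 ± 0.29 and -0.35 ± 0.20 (adjusted p = 0.486 and 0.485). The kidney-type chains Col4a3 and Col4a4 were low, at 0.538, 1.16, 0.715 and 0.633 CPM in WT and 0.739, 1.17, 1.5 and 0.793 CPM in SMSrKO and 0.582, 0.596, 0.903 and 0.724 CPM in WT and 0.695, 1.25, 0.981 and 1.33 CPM in SMSrKO (adjusted p = 0.568 and 0.377). Groups overlapped for all 4 chains. Among laminins, Lamc1 had 23.9, 34.1, 27.7 and 40.7 CPM in WT and 26.2, 29.3, 26.9 and 33.4 CPM in SMSrKO, Lama4 6.08, 14.8, 10.4 and 13.2 CPM in WT and 10, 7.44, 9.32 and 8.8 CPM in SMSrKO and Lamc3 4.7, 9.11, 7.11 and 9.71 CPM in WT and 6.34, 9.29, 14.7 and 11.2 CPM in SMSrKO. Lamb3 had 5.97, 15.8, 35.6 and 21 CPM in WT and 27.4, 21.9, 32.3 and 12.4 CPM in SMSrKO and Lama3 1.14, 1.72, 0.828 and 0.664 CPM in WT and 1.04, 0.819, 0.425 and 0.639 CPM in SMSrKO. None of these 5 chains was called (adjusted p = 0.768, 0.608, 0.537, 0.858 and 0.522), and all overlapped between groups.

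**Figure D5:**
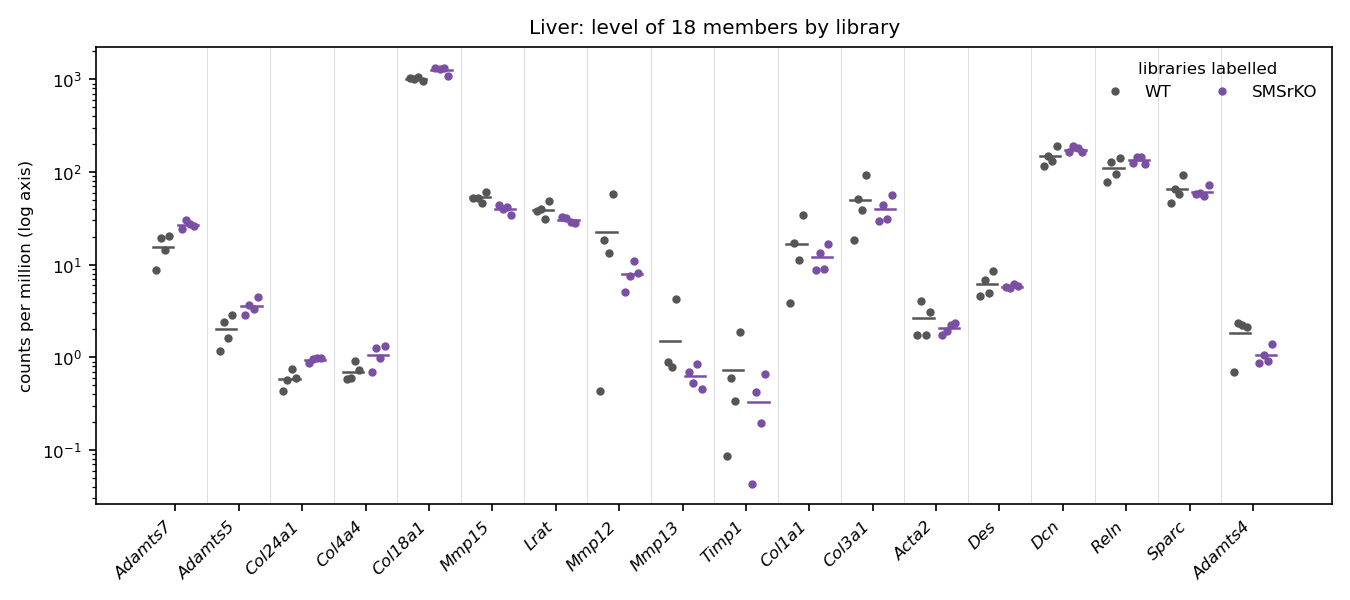
CPM (vertical log axis) of 18 members in each liver library, with points for libraries and lines for group means of WT and SMSrKO. SMSrKO libraries lie above WT for Adamts7, Col24a1 and Col18a1 and below for Mmp15, and the 2 groups overlap for the stellate cell genes.

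The stellate cell genes were all tested in whole liver. Lrat had 37.5, 39.4, 30.8 and 48.9 CPM in WT and 32.5, 31.7, 28.6 and 28.2 CPM in SMSrKO, with a fold change of -0.37 ± 0.13 and an unadjusted p of 0.0159 that did not pass adjustment (adjusted p = 0.264). Acta2, the mark of the myofibroblast, had 1.72, 4.01, 1.73 and 3.08 CPM in WT and 1.74, 1.92, 2.25 and 2.35 CPM in SMSrKO and Des 4.59, 6.86, 5 and 8.54 CPM in WT and 5.69, 5.55, 6.14 and 5.83 CPM in SMSrKO. Both overlapped between groups (adjusted p = 0.649 and 0.852). Reln had 77.4, 129, 95.3 and 141 CPM in WT and 126, 144, 146 and 121 CPM in SMSrKO and Pdgfrb 8.98, 14.9, 12.5 and 23.5 CPM in WT and 12.3, 15.2, 15.1 and 13.8 CPM in SMSrKO (adjusted p = 0.538 and 0.913). Lox had 0.366, 0.497, 0.489 and 0.483 CPM in WT and 0.304, 0.427, 0.327 and 0.511 CPM in SMSrKO (-0.19 ± 0.29, adjusted p = 0.854, and -0.29 without the first WT library).

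The matrix genes of that group overlapped as well. Dcn, second per length among members at 160 ± 42.8 TPM in WT and 181 ± 13.8 in SMSrKO (SD, n = 4), had 116, 148, 132 and 193 CPM in WT and 163, 189, 181 and 165 CPM in SMSrKO. Bgn had 83, 123, 118 and 153 CPM in WT and 132, 147, 139.6 and 124 CPM in SMSrKO and Lum 8.01, 12.2, 6.25 and 12.8 CPM in WT and 6.69, 8.93, 11 and 7.7 CPM in SMSrKO. Sparc had 46.8, 65.1, 58.4 and 92.5 CPM in WT and 58.1, 58.9, 54.4 and 71.6 CPM in SMSrKO, and none of the 4 was called (adjusted p = 0.509, 0.653, 0.767 and 0.833). Col4a3bp, the ceramide transfer protein, had 48.6, 65.9, 66.1 and 67.6 CPM in WT and 65.5, 79.1, 69.3 and 67.9 CPM in SMSrKO (0.18 ± 0.12, adjusted p = 0.524, and 0.08 without the first WT library). For Dcn, Bgn, Sparc, Reln, Pdgfrb, Des and Col4a3bp the first WT library was the lowest of its group and the fourth the highest. The summed level of all 103 members was 2155 to 3197 CPM in WT and 2650 to 2801 in SMSrKO.

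Other genes of the matrix pathways were read from lists. In liver none of the tested genes on the lists for collagen modification and crosslinking (16), other matrix glycoproteins and proteoglycans (22), integrins and matrix receptors (16), TGF-beta and PDGF signalling (19) and other proteases and inhibitors (16) was called. In hepatocytes 9 of 12 tested glycoproteins and proteoglycans were higher and 2 lower in dKO, 8 were higher and 2 lower in tKO, and 0 were higher and 9 lower in tKO than in dKO. Over all tested genes 24% were higher and 20% lower in dKO, 25.6% and 21.8% in tKO, and 14.3% and 15.2% in tKO against dKO. How many of the 12 passed the filter only through the knockouts was not counted. Fibronectin (Fn1), an adhesive matrix and plasma protein made by hepatocytes, was at 2349 CPM in WT, 1920 in dKO and 1089 in tKO, a fall of 1.11 on the log2 scale in tKO against WT (adjusted p = 1.4e-43). Thrombospondin 1 (Thbs1) was at 16.4 CPM in WT, 65.2 in dKO and 28.2 in tKO.

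The counts of the lists below stand against 24% higher and 20% lower over all tested genes in dKO and 25.6% and 21.8% in tKO, and several lie near those shares. Of 14 tested collagen modification genes 7 were higher and 1 lower in dKO, and 3 were higher and 6 lower in tKO. Serpinh1, the collagen chaperone, went from 0.434 CPM in WT to 5.37 in dKO and 4.56 in tKO (adjusted p = 4.13e-16 and 2.31e-14). The transglutaminase Tgm2, which crosslinks matrix proteins, was lower in tKO than in dKO (1672 against 2418 CPM, adjusted p = 5.6e-23), as was the lysyl oxidase relative Loxl2 (10.2 against 25.3 CPM, adjusted p = 8.36e-17). Of 14 tested matrix receptors 8 were higher and 3 lower in dKO and 10 higher and 3 lower in tKO. The hyaluronan receptor Cd44 went from 3.30 CPM in WT to 26.6 in dKO and 23.7 in tKO, and the collagen receptor Ddr1 from 13.7 to 39.6 and 44 CPM.

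Of 15 tested TGF-beta and PDGF genes 9 were higher and 0 lower in dKO and 8 higher and 2 lower in tKO. The ligand Tgfb1 was at 3.70 CPM in WT, 11.7 in dKO and 9.99 in tKO (adjusted p = 2.64e-14 and 1.65e-11). Of 12 tested genes of the plasmin system and other proteases 7 were higher and 3 lower in dKO and 5 higher and 4 lower in tKO. Basigin (Bsg), known as an inducer of metalloproteases, was at 1225 CPM in WT, 1473 in dKO and 768 in tKO (adjusted p = 1.23e-28 for tKO against WT). With the liver dispersion the counts against WT became 1 higher and 0 lower in dKO and 1 and 1 in tKO for collagen modification, 7 and 0 in both knockouts for receptors, 4 and 0 in dKO and 6 and 1 in tKO for TGF-beta and PDGF genes, 4 and 0 in dKO and 2 and 1 in tKO for the protease list, and 7 and 0 in dKO and 6 and 1 in tKO for the other matrix glycoproteins.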

How the data were processed

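RNA-seq counts of 8 liver and 9 hepatocyte libraries were grouped by the labels. For liver the authors deposited whole-number counts per Ensembl gene with gene lengths and a TPM table, and TPM recomputed from those counts differed from it by at most 5e-05. For hepatocytes the deposited files hold expected counts per Entrez gene and FPKM, per the file headers, and list only genes above 0. A gene absent from a file was taken as 0 and is called not listed, so no floor is given there. Per the submitters' processing notes, Trimmomatic 0.36, STAR 2.5.2b, Bowtie2 2.2.5 and DESeq2 1.30.1 were used with GRCm38. No source used here gives the counting tool or the strand setting.

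Expected counts were rounded to whole numbers (6.25% were not whole). Each experiment was fitted on its whole table in edgeR 4.0.16 (R 4.3.3): filterByExpr with a minimum count of 10, TMM, the robust quasi-likelihood test and Benjamini-Hochberg adjustment over the whole table (threshold 0.05). The filter amounts to 0.328 CPM in liver and 1.07 CPM in hepatocytes. CPM of single genes uses TMM-scaled totals, summed CPM of lists uses plain totals, and levels of different genes are compared only as TPM or FPKM. The experiments were normalized separately and no level is compared between them. SE was derived from the log2 value and the F statistic, and may understate the error of large folds over few WT counts. The test was checked on simulated counts.

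The members, the other gene lists, the alternatives and the naming rule were chosen with earlier results of these data known. The naming rule took, in each subfamily and experiment, up to 4 members with the smallest p and up to 2 with the highest level per length, and the 10 genes written out. Alternatives were DESeq2 1.42.0, its size factors in edgeR, library totals alone, no filter, the liver dispersion in hepatocytes, the groups of a comparison alone, and leaving out each library. Replicates differed by more than sampling noise. Motifs were searched by exact match on both strands. Results for some genes are not reported here, and their rows still enter the fits and the counts.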

Additional observations from a re-analysis of the deposited data

Results flagged for a closer look

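In liver groups of 4 libraries, 3 of 90 groups of member values held a library whose gap to its nearest neighbour exceeded the 95% critical value of Dixon's test, and chance alone flags about 1 group in 20. All 3 were the first WT liver library, which was the lowest of its group. Adamts4, aggrecanase 1, stood at 0.689 CPM there and at 2.14 to 2.32 CPM in the other WT libraries. Col4a3bp, the ceramide transfer protein, stood at 48.6 CPM against 65.9 to 67.6 CPM. The collagen crosslinking enzyme Lox stood at 0.366 CPM against 0.483 to 0.497 CPM.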

How the results depend on the processing

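No paired analysis was possible because the groups compared share no replicate numbers. With the common dispersion of the liver libraries the hepatocyte counts of called members moved most: members lower went to 0 in dKO and 1 in tKO against WT, and tKO against dKO gave 1 higher and 8 lower. DESeq2 called 2 members higher and 1 lower in SMSrKO liver, where edgeR called 0 and 0. Under the other settings, which are listed with the processing, all counts of called members stayed within 1.5 times. Of the directions of named members 22 of 2105 values changed sign, in 14 uncalled results, 19 of them on leaving out 1 library. Leaving out each library in turn, the liver log2 fold change ranged from -0.271 to 0.094 for Adamts1, -0.123 to 0.207 for Col14a1, -0.591 to 0.164 for Col3a1, -0.233 to 0.085 for Des, -0.047 to 0.716 for Lamb3, -0.239 to 0.022 for Lamc1, -0.238 to 0.066 for Mmp19, -0.268 to 0.223 for Pdgfrb, -0.245 to 0.101 for Sparc, -1.63 to 0.12 for Timp1 and -0.128 to 0.143 for Timp2. In hepatocytes it ranged from -0.286 to 0.101 for Col15a1 and -0.025 to 0.167 for Reln in dKO, and from -0.065 to 0.007 for Mmp14 in tKO. The cause was not tested. Col14a1 in liver was at -0.046 with library totals alone, and Timp2 at 0.009 both by DESeq2 and with its size factors in edgeR.

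Depth limits the hepatocyte results: 48 of 92 members could not be tested, and with 3 libraries a group a WT count of 0 to 5 bounds no fold closely.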
